A study of Homo sapiens with 8 samples.

Results

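The products of 10 genes mark or drive the change of a cell between an epithelial and a mesenchymal form, and these genes were examined in H1 human embryonic stem cells given NANOG, OCT4 or SOX2 lentivirus. They were CDH1, CDH2, EPCAM, VIM, TWIST1, SNAI2, ZEB2, TGFBI, TGFB1I1 and CD44, and every probe that the array platform's annotation assigns to one of these 10 symbols was taken. This gave 18 of the 47323 probes of the table. Of the 21828 probes bright enough to be tested, 15 belonged to 9 of the 10 genes. The 18 probes were taken by symbol alone, and the 15 were those that passed an intensity filter. The 10 genes, and the lists of related genes used further below, were chosen with earlier results of these data known. Their counts of calls beside the shares of all probes or genes are therefore descriptions and no test of the set.

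Epithelial cells hold together in sheets through E-cadherin, which CDH1 encodes, and through the adhesion molecule EPCAM. In an epithelial-mesenchymal transition, transcription factors of the SNAI, ZEB and TWIST families repress such genes, often downstream of TGF-beta, and the cells gain N-cadherin (CDH2), the intermediate filament protein vimentin (VIM) and matrix contacts. Human embryonic stem cells grow as epithelial colonies rich in E-cadherin and EPCAM, and similar transitions accompany gastrulation, when the epiblast gives rise to mesoderm and endoderm.

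RNA came from 8 samples, 1 array each, of the H1 line, an established human embryonic stem cell line. The 4 groups of 2 arrays were cells given a control vector labelled EF1a-control and cells given overexpression vectors for NANOG (OE-NANOG), OCT4 (OE-OCT4, the protein of the gene POU5F1) or SOX2 (OE-SOX2). All groups shared the transduction with lentivirus and polybrene, the Matrigel coating and the mTeSR medium. The labels used here give no time of harvest after transduction. They do not call the replicates separate cultures either, so the p-values speak only of the spread among these arrays, and that spread may be technical.

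Replicate arrays correlated across probes at 0.990 for control, 0.996 for NANOG, 0.992 for OCT4 and 0.970 for SOX2. Probes more than 0.5 apart on the log2 scale between replicates made up 3.7% of all tested probes in the control group and 14.9% in the SOX2 group, so the SOX2 arrays were the least alike. Among the 15 probes of the switch genes the control arrays stood apart more: 4 differed by more than 0.5, namely CDH2 (0.76), CD44 probe ILMN_1803429 (0.66) and both VIM probes (0.58), and all 4 were higher on control replicate 2. The brightest probe of the factor named on each label was not called higher on its own arrays. POU5F1 read 3447 and 2833 in control and 1793 and 1501 in the OCT4 group, SOX2 read 1272 and 1587 in control and 678 and 1071 in the SOX2 group, and NANOG read 491 and 358 in control and 347 and 387 in the NANOG group. Where these probes lie relative to the sequence carried by the vectors was not analysed here, so samples are called by their labels.

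Markers of the cell type were bright: 13 of 14 markers of human embryonic stem cells passed the filter, with summed intensities from 27004 to 38492. The SOX2 arrays were the lowest, at 27004 and 30061, and in that group 4 of the 13 markers fell, where 4.41% of all genes did. Among them were TERF1, a telomere-binding protein (log2 change -2.51, adjusted p = 0.000322), and DNMT3B, a DNA methyltransferase (-1.33, adjusted p = 0.0196). The TERF1 call held without each array in turn, while the count became 1 without control replicate 1 or either NANOG array, where DNMT3B lost its call, and 2 without either OCT4 array. Of 12 fibroblast markers, 7 passed the filter, and their summed intensity ran from 2959 to 4601 over all 8 arrays, with 3585 and 4011 in control and 2959 and 3715 with SOX2. Of these markers, LUM, POSTN and FAP lay under the filter intensity on every array, while COL1A1 ranged from 401 to 1063, COL1A2 from 255 to 753 and THY1 from 1085 to 2692. No fibroblast marker was called higher against control in any group, and THY1 was at 0.93 with NANOG (adjusted p = 0.0648). With only the NANOG and control arrays fitted, 1 marker was called higher and 1 lower. Of all 21828 probes, 994 were called higher and 680 lower in that fit. Fibroblast markers were also called in both directions with NANOG without either SOX2 array. In bulk RNA, fewer cells of a type and less RNA per cell cannot be told apart.

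RefSeq promoters of assembly GRCh38.p14 were in the table used for 6 of the 10 genes: CDH2, VIM, ZEB2, TGFBI, TGFB1I1 and CD44. Those of 4 genes that rose together in the SOX2 group are shown first, each as the 250 bases before the annotated start, read along the gene. They lie at chr18:28177131-28177380 on the minus strand for CDH2, and on the plus strand at chr10:17227991-17228240 for VIM, chr5:136028738-136028987 for TGFBI and chr11:35138921-35139170 for CD44. The fifth is ZEB2, at chr2:144520120-144520369 on the minus strand, shown because it was the 1 gene with a SOX box. Capitals mark its SOX box and an E-box. TGFB1I1 also rose in the SOX2 group, but its 3 windows, 1 of which holds an E-box, are not shown.
CDH2: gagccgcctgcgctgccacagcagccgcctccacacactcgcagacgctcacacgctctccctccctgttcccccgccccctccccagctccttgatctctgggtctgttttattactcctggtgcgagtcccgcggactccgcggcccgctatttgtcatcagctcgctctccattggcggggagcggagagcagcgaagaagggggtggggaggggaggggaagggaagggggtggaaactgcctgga
VIM: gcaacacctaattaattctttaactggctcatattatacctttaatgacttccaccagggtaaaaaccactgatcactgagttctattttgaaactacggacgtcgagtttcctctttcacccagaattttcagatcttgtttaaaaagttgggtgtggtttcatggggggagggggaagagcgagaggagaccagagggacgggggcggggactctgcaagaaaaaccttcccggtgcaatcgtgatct
TGFBI: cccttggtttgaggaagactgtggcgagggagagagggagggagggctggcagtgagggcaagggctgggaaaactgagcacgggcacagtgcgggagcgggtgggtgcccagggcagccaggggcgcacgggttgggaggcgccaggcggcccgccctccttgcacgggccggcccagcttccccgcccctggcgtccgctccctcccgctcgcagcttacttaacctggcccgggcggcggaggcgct
CD44: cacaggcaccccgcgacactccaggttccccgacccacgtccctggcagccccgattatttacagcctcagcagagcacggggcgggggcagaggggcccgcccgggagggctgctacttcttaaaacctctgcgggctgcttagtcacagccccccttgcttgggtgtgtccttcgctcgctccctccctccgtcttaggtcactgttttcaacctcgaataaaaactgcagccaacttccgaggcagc
ZEB2: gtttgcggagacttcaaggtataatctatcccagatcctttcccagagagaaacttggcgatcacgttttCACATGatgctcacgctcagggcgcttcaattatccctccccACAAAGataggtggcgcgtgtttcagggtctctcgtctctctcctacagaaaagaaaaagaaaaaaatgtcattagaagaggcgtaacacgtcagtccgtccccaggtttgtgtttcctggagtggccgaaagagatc

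Searched on both strands, the E-box CAGGTG, which reads CACCTG on the other strand and is a site bound by SNAI and ZEB proteins, occurred in 0 of the 6 genes' windows and in 17.5% of all 35116 windows of this length. The octamer ATGCAAAT, or ATTTGCAT on the other strand, the classical OCT4 site, occurred in 0 of 6 and in 1.63% of all windows. The SOX box ACAAAG, or CTTTGT on the other strand, occurred in 1 of 6, at -138 to -133 from the ZEB2 start, and in 13.7% of all windows. These counts are by gene, and CDH2 and TGFB1I1 have several windows, while the shares are by single window. The looser E-box CANNTG, searched after the other 3 motifs, contains CAGGTG and was present for 3 of the 6 genes against 61.8% of all windows. It stood at -180 to -175 in ZEB2, at -223 to -218 before 1 of the 3 starts of TGFB1I1, and at -97 to -92 before a further CDH2 start whose window is not shown. A match is a run of letters and not a bound site, and a window without one says nothing of sites elsewhere. GC content was 66% for the CDH2 window shown, 46% for VIM, 72.8% for TGFBI, 62.4% for CD44 and 48% for ZEB2.

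Intensities below are the authors' normalized values on a linear scale, given as replicates 1 and 2 of each group. Changes are differences in log2 of the background-corrected intensity, with an offset of 50, and a fold is the ratio on that same scale. They were tested with limma over all 21828 probes with Benjamini-Hochberg adjustment, 2 arrays against 2, and a probe was called at an adjusted p under 0.05. Where both arrays of a group lay under the filter intensity of 124, the fold is given only as a lower bound on that scale. For dim probes, folds and bounds on that scale can exceed the ratio of the deposited intensities. A smaller offset gave a larger change still for TGFBI with NANOG (log2 0.81 with an offset of 16, against 0.69).

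**Figure D1:**
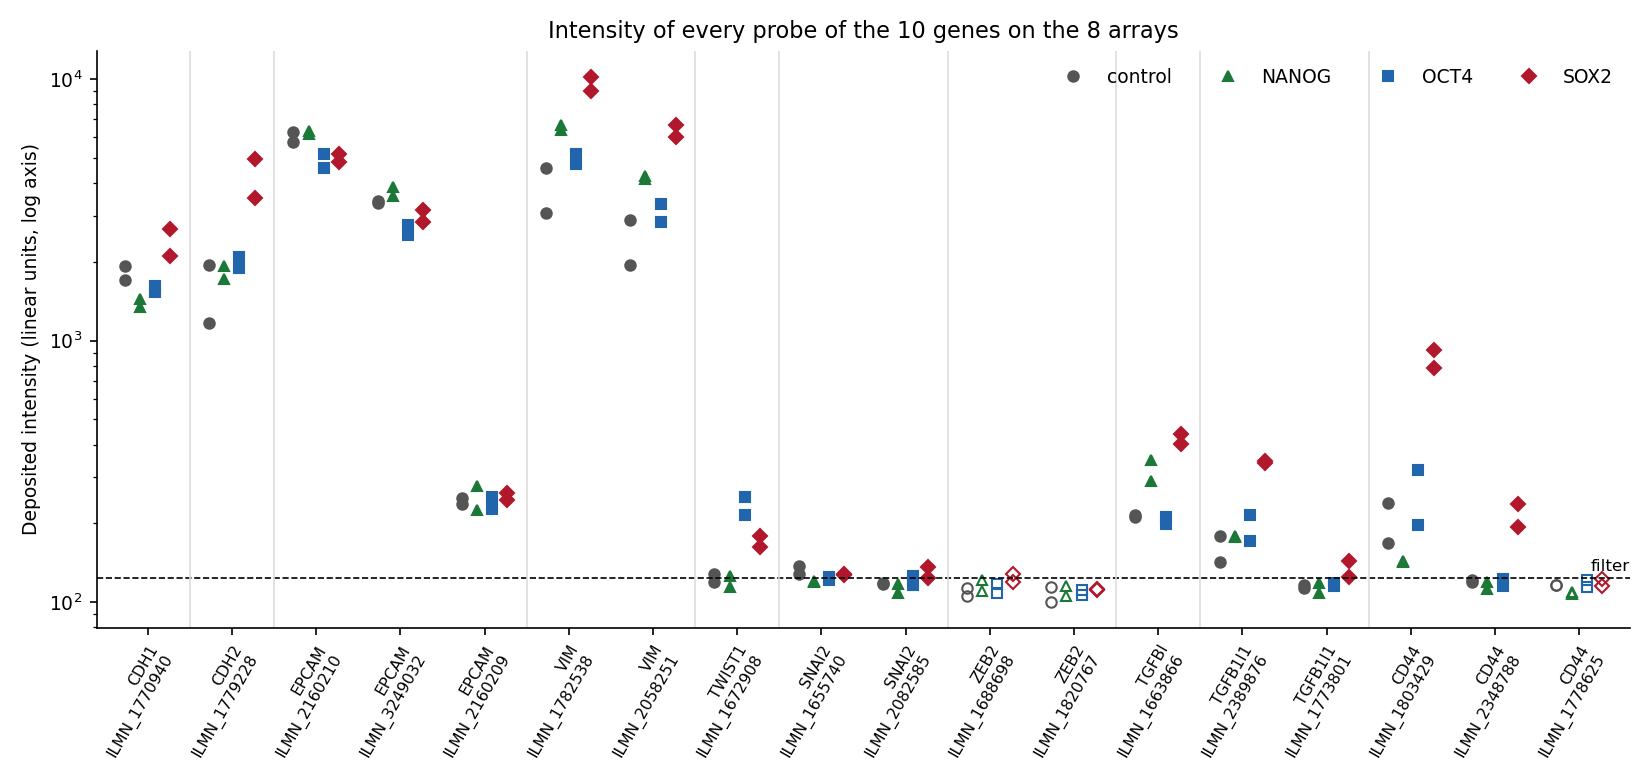
Deposited intensity (log axis) of the 18 probes of the switch genes on each of the 8 arrays; colours and shapes give the 4 groups, each point is 1 array, open points belong to the 3 probes not tested and the dashed line is the filter intensity of 124. The SOX2 arrays lie above both control arrays for every tested probe of CDH2, VIM, TWIST1, TGFBI, TGFB1I1 and CD44, while TWIST1 is highest on the OCT4 arrays. CD44 probe ILMN_2348788 and TGFB1I1 probe ILMN_1773801 passed the filter only through the SOX2 arrays, so they had to be higher there.

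In the SOX2 group 6 of the 9 measured genes rose: CDH2, VIM, TWIST1, TGFBI, TGFB1I1 and CD44. These are the mesenchymal adhesion and filament genes, the matrix and focal adhesion genes, the hyaluronan receptor and 1 transcription factor, and their brightest probes rose by 1.57-fold to 5.14-fold. The epithelial genes CDH1 and EPCAM were not called in either direction. By probes, 8 of 15 were called higher and 0 lower, where 4.34% of all tested probes were called higher and 3.67% lower. Of the 15, CD44 probe ILMN_2348788 and TGFB1I1 probe ILMN_1773801 passed the filter only through the 2 SOX2 arrays, so they had to be higher there. Without them, 7 of 13 probes were called higher and 0 lower, and the median log2 change was 0.65, against -0.01 for all probes. In the NANOG group the only called probe was that of TGFBI, which was higher (1 of 13, with 1.78% of all probes called higher and 0.536% lower). In the OCT4 group the only called probe was that of TWIST1, also higher (1 of 13, with 0.151% of all probes called higher and 0.0229% lower). The median log2 changes of the 13 probes there were 0.06 for both, against -0.02 and -0.00 for all probes.

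The 3 comparisons share the same 2 control arrays, so a control array that is high or low moves all 3. Arrays of the factor and control groups did not overlap for 8 of these 13 probes with NANOG, 6 with OCT4 and 11 with SOX2. Over all probes this was so for 52.2%, 38.2% and 47.3%, so the NANOG and OCT4 counts were near the share of all probes. The SOX2 group had the highest mean of the 4 groups for 9 of the 13 probes, with no share over all probes computed for this count.

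**Figure D2:**
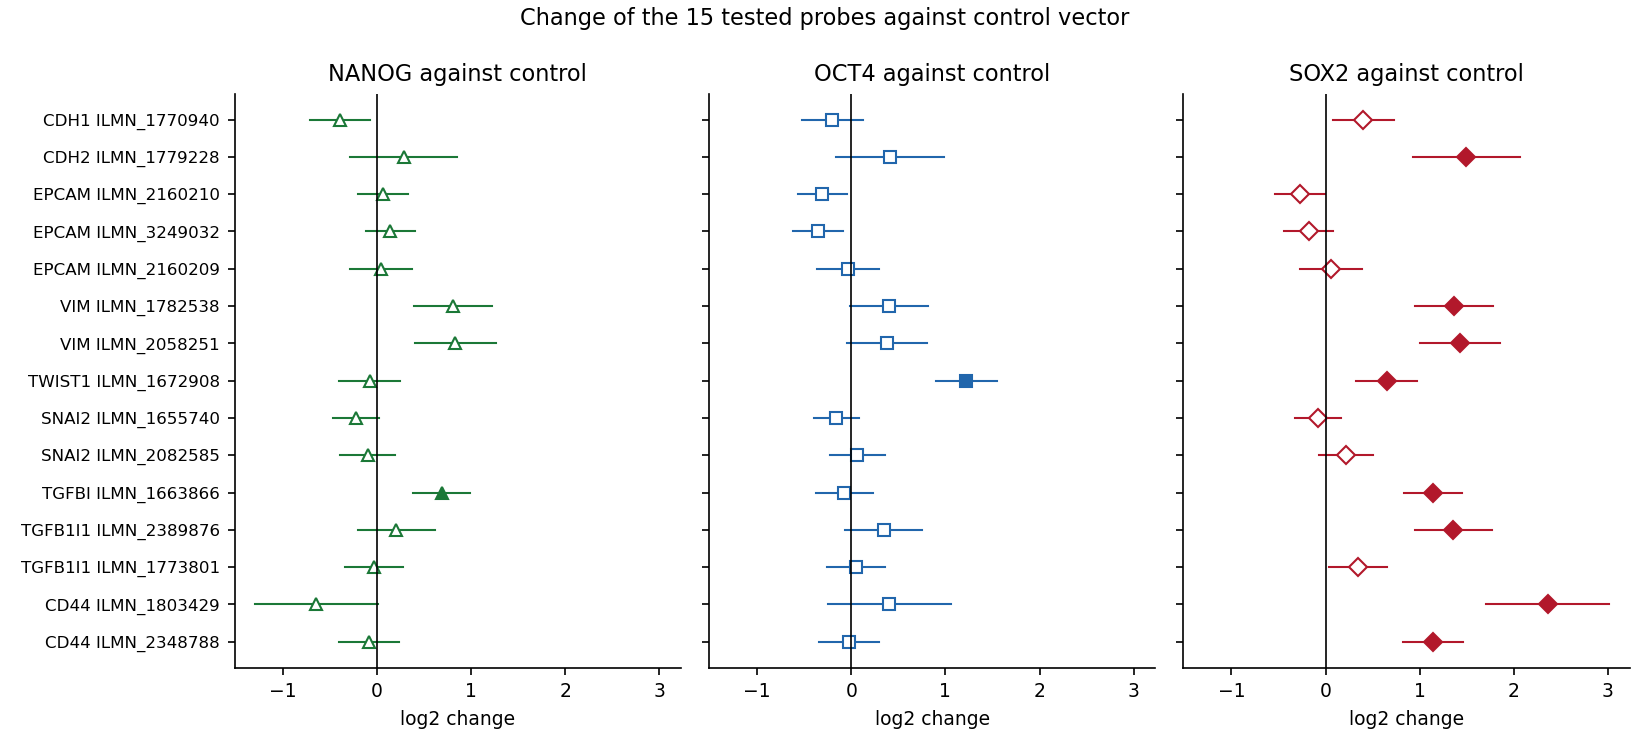
Log2 change against control of the 15 tested probes in the NANOG, OCT4 and SOX2 groups, with 95% intervals from the limma fit; filled points had an adjusted p under 0.05. In the SOX2 group 8 probes were called, all higher, 1 of which (CD44 probe ILMN_2348788) passed the filter only through the SOX2 arrays, against 1 each for NANOG (TGFBI) and OCT4 (TWIST1).

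Of the adhesion genes, CDH1, which encodes E-cadherin of epithelial junctions, read 1699.9 and 1924 in control, 1437 and 1342 with NANOG, 1619 and 1539 with OCT4 and 2111 and 2672 with SOX2. The groups did not overlap: both NANOG arrays were the lowest and both SOX2 arrays the highest. Against control the log2 change was -0.39 for NANOG (SE 0.14, adjusted p = 0.233), -0.20 for OCT4 (SE 0.14, adjusted p = 0.943) and 0.40 for SOX2 (SE 0.14, adjusted p = 0.130), none past the threshold. Without SOX2 replicate 1 the SOX2 value was 0.57 with an adjusted p of 0.0109. E-cadherin transcript was thus not called lower in any group against control.

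EPCAM, an adhesion molecule of epithelia and pluripotent cells, had 3 probes. ILMN_2160210 read 6259 and 5755 in control, 6347 and 6169 with NANOG, 4553 and 5181 with OCT4 and 4821 and 5143 with SOX2. ILMN_3249032 read 3347 and 3405 on the control arrays, 3569 and 3867 with NANOG, 2529 and 2777 with OCT4, and 2833 and 3154 with SOX2. On both probes the OCT4 and SOX2 arrays were all below the control arrays. Their log2 changes were -0.31 and -0.35 for OCT4 (adjusted p = 0.659 and 0.519) and -0.27 and -0.18 for SOX2 (adjusted p = 0.200 and 0.395), and none was called. ILMN_2160209 stayed between 226 and 277 on all arrays, and its groups overlapped.

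CDH2 encodes N-cadherin, the cadherin that mesenchymal and neural cells use in place of E-cadherin. Its probe read 1167 and 1947 in control, 1929 and 1724 with NANOG, 2082 and 1900.2 with OCT4 and 4959 and 3514 with SOX2. Both SOX2 arrays lay above the other 6, while the control, NANOG and OCT4 arrays overlapped. CDH2 rose 2.82-fold in the SOX2 group (log2 1.50, SE 0.25, adjusted p = 0.0116), while NANOG and OCT4 were at 0.28 and 0.41 (adjusted p = 0.704 and 0.911). The SOX2 call was lost without control replicate 1, the lower control array (log2 1.12, adjusted p = 0.0650). In the SOX2 group both cadherin transcripts were therefore above control on every array, with CDH2 alone past the threshold.

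VIM encodes vimentin, the main intermediate filament of mesenchymal cells, which is also made by human embryonic stem cells. Probe ILMN_1782538 read 3074 and 4568 in control, 6693 and 6369 with NANOG, 5153 and 4734 with OCT4 and 9018 and 10172 with SOX2. The order of the group means was SOX2, NANOG, OCT4 and control, with no overlap between neighbours, although no step between neighbours was called. In the SOX2 group VIM rose 2.57-fold on this probe (log2 1.36, SE 0.18, adjusted p = 0.00461) and 2.70-fold on ILMN_2058251 (log2 1.43, SE 0.19, adjusted p = 0.00427).

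The second VIM probe read 1947 and 2892 in control, 4246 and 4143 with NANOG, 3331 and 2849 with OCT4 and 5977 and 6693 with SOX2. It gave the same order of means, with 1 OCT4 array inside the control range. In the NANOG group the log2 changes of 0.81 and 0.83 (SE 0.18 and 0.19) missed the threshold, both with an adjusted p of 0.0634. They passed it without control replicate 2 (adjusted p = 0.0378 and 0.0453) and without either SOX2 array (0.0166 and 0.0168). In the OCT4 group the log2 changes were 0.40 and 0.38 (adjusted p = 0.780 and 0.833).

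The transcription factors were dim on these arrays. TWIST1, a bHLH factor of mesoderm and cranial neural crest, read 119.7 and 128 in control, 125 and 114 with NANOG, 252 and 215 with OCT4 and 163 and 178 with SOX2. The OCT4 arrays were the highest, the SOX2 arrays stood between them and the rest, and the NANOG and control arrays overlapped near the filter intensity. TWIST1 rose 2.33-fold in the OCT4 group (log2 1.22, SE 0.14, adjusted p = 0.0198) and 1.57-fold in the SOX2 group (log2 0.65, SE 0.14, adjusted p = 0.0316). In the NANOG group it was at -0.08 (adjusted p = 0.886). The OCT4 call was lost when any 1 of the control, NANOG or OCT4 arrays was left out (adjusted p up to 0.255). The SOX2 call was lost without either control array, either NANOG array or SOX2 replicate 2 (up to 0.188).

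SNAI2, also called Slug, is a zinc finger repressor of CDH1. Its probe ILMN_1655740 read 128 and 137 in control, 119 and 120.5 with NANOG, 122 and 125 with OCT4 and 127 and 128 with SOX2. Its probe ILMN_2082585 ranged from 109 to 137. Values this near the filter intensity of 124 carry little order, and no SNAI2 probe was called in any comparison with control.

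ZEB2, a further repressor of CDH1 whose promoter holds the SOX box shown above, did not pass the filter and was not tested. Its probe ILMN_1688698 ranged from 105 to 129 and exceeded the filter intensity on 1 array, SOX2 replicate 2. Its probe ILMN_1820767 ranged from 100.3 to 115. Neither probe shows whether ZEB2 differed between the groups, since only a bound is known.

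TGFBI is a matrix protein that cells secrete under TGF-beta and that binds integrins. Its probe read 216 and 211 in control, 349.7 and 289 with NANOG, 198 and 212 with OCT4 and 403 and 438 with SOX2. The SOX2 arrays were the highest and the NANOG arrays the next, and the OCT4 arrays overlapped with control. TGFBI rose 2.21-fold in the SOX2 group (log2 1.14, SE 0.13, adjusted p = 0.00267) and 1.61-fold in the NANOG group (log2 0.69, SE 0.13, adjusted p = 0.0389), and was at -0.07 in the OCT4 group (adjusted p = 1.00). It was the only switch gene called in the NANOG group. That call was lost without any 1 of the control, NANOG or OCT4 arrays (adjusted p up to 0.400), while the SOX2 call held without each array in turn.

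TGFB1I1, or Hic-5, is a focal adhesion adaptor that TGF-beta induces. Probe ILMN_2389876 read 143 and 179.6 in control, 177 and 178 with NANOG, 171 and 214 with OCT4 and 346 and 341 with SOX2. Both SOX2 arrays lay above all others, and the other 3 groups overlapped. It rose 2.56-fold in the SOX2 group (log2 1.36, SE 0.18, adjusted p = 0.00458), with 0.20 for NANOG and 0.34 for OCT4 (adjusted p = 0.703 and 0.867). The second probe, ILMN_1773801, stayed between 108 and 144, at least 1.13-fold higher with SOX2, a description with no test, since it passed the filter only through the SOX2 arrays.

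CD44 is the cell surface receptor for hyaluronan. Probe ILMN_1803429 read 168 and 239.9 in control, 143 on both NANOG arrays, 321 and 197 with OCT4 and 922 and 788 with SOX2. The SOX2 arrays stood far above the rest, both NANOG arrays lay below control, and the OCT4 arrays spread around control. CD44 rose 5.14-fold in the SOX2 group (log2 2.36, SE 0.29, adjusted p = 0.00317), the largest change of the 15 probes against control. It was at -0.64 for NANOG (SE 0.29, adjusted p = 0.356) and 0.40 for OCT4 (SE 0.29, adjusted p = 0.944).

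CD44 probe ILMN_2348788 read 121 and 119 in control, 119 and 112 with NANOG, 122 and 115 with OCT4 and 194 and 236 with SOX2. All arrays outside the SOX2 group were under the filter intensity. On the background-corrected scale the SOX2 arrays were at least 2.11-fold higher, a description with no test, since the probe passed the filter only through them. Under the alternatives its log2 change ran from 0.83 to 1.64. The third CD44 probe, ILMN_1778625, ranged from 107 to 122 and did not pass the filter. CD44 is spliced into many forms, and which of them each probe detects was not analysed here.

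Of the 7 calls among the 13 probes in the SOX2 group, 5 held when each of the 8 arrays was left out in turn: both VIM probes, TGFBI, TGFB1I1 and CD44 probe ILMN_1803429. The exceptions were CDH2 and TWIST1, as given above. The number of called probes ranged from 5 without control replicate 1 to 8 without SOX2 replicate 1. Fitted on the SOX2 and control arrays alone, 2 calls remained, TGFBI and CD44 probe ILMN_1803429. Over all probes such a fit gave 189 calls for SOX2 against control, where the fit of all groups gave 1749. For NANOG against control it gave 1674, where the fit of all groups gave 506. The cause of this difference was not tested.

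**Figure D3:**
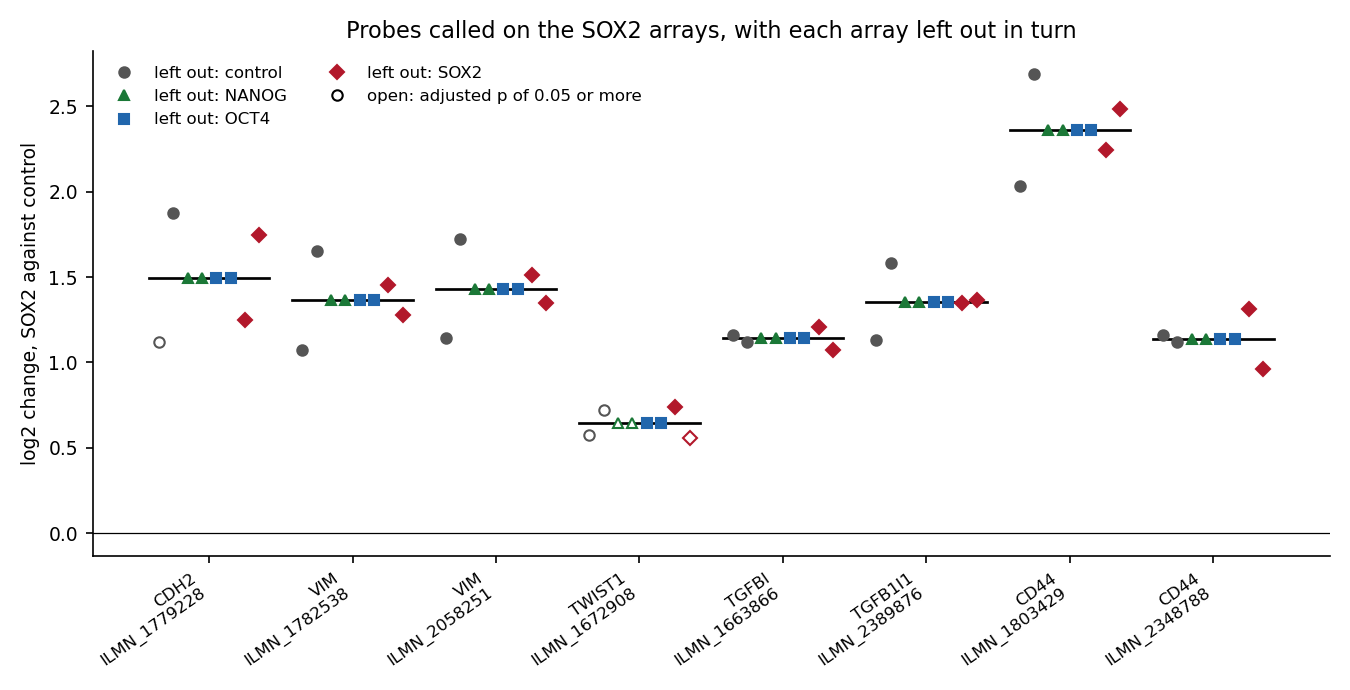
Log2 change between the SOX2 and control groups for the 8 called probes, with each of the 8 arrays left out in turn; the bar is the value with all arrays, colours and shapes name the group of the array left out, and open symbols had an adjusted p of 0.05 or more. CDH2 lost the call without control replicate 1 and TWIST1 without 5 of the arrays, and no value changed sign. CD44 probe ILMN_2348788 is shown only as a value, since it passed the filter only through the SOX2 arrays.

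The factor groups were then compared with each other, which does not involve the control arrays except in the shared spread. Of the 13 probes, 5 from the 5 genes CDH1, CDH2, TWIST1, TGFB1I1 and CD44, were called lower with NANOG than with SOX2 and 0 higher. Both NANOG arrays lay above both SOX2 arrays for 2 EPCAM probes, which were not called. Over all probes 6.61% were called lower and 6.86% higher in NANOG than in SOX2. CD44 showed the largest difference, with NANOG below SOX2 by a log2 difference of -3.01 on ILMN_1803429 (SE 0.29, adjusted p = 0.000518). CDH1 was lower in NANOG than in SOX2 (-0.79, SE 0.14, adjusted p = 0.00819), the only called difference of E-cadherin among the 6 comparisons. CDH2 stood at -1.21 (adjusted p = 0.0155), TGFB1I1 at -1.15 (0.00470) and TWIST1 at -0.73 (0.0125). The CDH1, CDH2, TGFB1I1 and TWIST1 calls were each lost when either NANOG array was left out, while the CD44 call held without each array in turn. VIM and TGFBI differed by -0.56, -0.60 and -0.46, which was not past the threshold (adjusted p from 0.0575 to 0.0823).

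Between OCT4 and SOX2, 6 of the 13 probes, from the 5 genes CDH2, VIM, TGFBI, TGFB1I1 and CD44, were called lower in OCT4 and 0 higher, with 2.74% of all probes called lower and 2.01% higher. The differences were -1.22 for TGFBI (SE 0.13, adjusted p = 0.00244), -1.96 for CD44 (adjusted p = 0.00884), -0.96 and -1.05 for the VIM probes (0.0231 and 0.0197), -1.01 for TGFB1I1 (0.0192) and -1.09 for CDH2 (0.0479). TWIST1 pointed the other way, with OCT4 above SOX2 by 0.57 (adjusted p = 0.0608), and CDH1 was at -0.60 (adjusted p = 0.0505), neither called. The TGFBI call held without each array in turn. CD44 probe ILMN_1803429 lost its call without OCT4 replicate 2 (adjusted p = 0.0537), and CDH2 and both VIM probes lost theirs when any 1 NANOG or OCT4 array was left out. TGFB1I1 lost its call when either NANOG array or OCT4 replicate 1 was left out. The CDH2 call was also lost under 7 of the 12 alternatives that kept all arrays, and CDH1 passed under 4 of them (adjusted p from 0.0429 to 0.0477). CDH1 also passed without SOX2 replicate 1 (-0.78, adjusted p = 0.00246), and TWIST1 without either SOX2 array (adjusted p = 0.0499 and 0.0397).

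Between NANOG and OCT4, 2 of the 13 probes were called higher in NANOG and 1 lower, with 3.22% and 1.91% of all probes called so. TWIST1 was lower in NANOG by -1.30 (SE 0.14, adjusted p = 0.00206), a call that held without each array in turn. TGFBI was higher by 0.76 (SE 0.13, adjusted p = 0.0156) and EPCAM probe ILMN_3249032 by 0.49 (SE 0.11, adjusted p = 0.0465). The TGFBI call was lost without NANOG replicate 1 or either OCT4 array. The EPCAM call was lost without any 1 of the control, NANOG or OCT4 arrays, and the 2 further EPCAM probes were not called.

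Further genes of the same processes were described by their brightest probe, as counts beside the 12436 genes measured, of which 5.65% were called higher and 4.41% lower with SOX2. Among 35 measured mesenchymal genes, 9 rose and 2 fell with SOX2, and 25 were above control and 10 below, with a median log2 change of 0.50 against 0.00 for all genes. The 3 largest rises were ITGAV, an integrin chain that binds fibronectin and vitronectin (log2 1.46, SE 0.17, adjusted p = 0.00285), ANXA1, a membrane-binding annexin (1.37, SE 0.16, adjusted p = 0.00284), and CALD1, an actin-binding regulator of contraction (1.33, SE 0.19, adjusted p = 0.0074). The other 6 were the actin filament genes TPM1, TPM2 and ACTA2, the integrin gene ITGA5, the proteoglycan gene VCAN and the basement membrane collagen gene COL4A1. S100A4, a calcium-binding protein known as a fibroblast marker, fell by 2.26 (SE 0.19, adjusted p = 0.000851): it read 969 and 860 on the control arrays and 198 and 253 on the SOX2 arrays, and COL1A2, a chain of type I collagen, fell by 0.84 (adjusted p = 0.0374). The count depended on the arrays and the settings of the fit. It was 6 higher and 1 lower with array weights, and 1 in each direction with only the 2 groups compared. It also fell without control replicate 1 and without either NANOG array.

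Of 36 other epithelial genes, 3 rose and 2 fell in the SOX2 group, where 5.65% of all genes were called higher and 4.41% lower. Their median log2 change was -0.00. The desmosome genes DSP (log2 1.12, adjusted p = 0.00834) and DSC2 (0.66, adjusted p = 0.0141) and MAL2, a protein of apical transport (1.06, adjusted p = 0.0119), were higher. CDS1, an enzyme of phospholipid synthesis (-0.69, adjusted p = 0.0174), and CD24, a surface glycoprotein (-0.63, adjusted p = 0.0288), were lower. With only the 2 groups compared the 5 calls became 0, where the calls over all probes fell from 1749 to 189. The count also fell without control replicate 1 and grew without SOX2 replicate 1. The calls over all probes moved with 1 array left out too.

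Of 10 other transcription factors of the transition, 0 rose in the SOX2 group and TCF4, a bHLH factor, fell (-0.67, adjusted p = 0.0381). That call was lost without any array other than SOX2 replicate 1. Of 21 TGF-beta pathway genes, 2 rose with SOX2: FST, a secreted activin antagonist (1.40, SE 0.21, adjusted p = 0.00834), and THBS1, a matrix protein that activates latent TGF-beta (1.02, SE 0.15, adjusted p = 0.00808). The list's median was 0.06. FST lost its call without control replicate 1 (adjusted p = 0.0810), and THBS1 kept it without each array in turn.

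**Figure D4:**
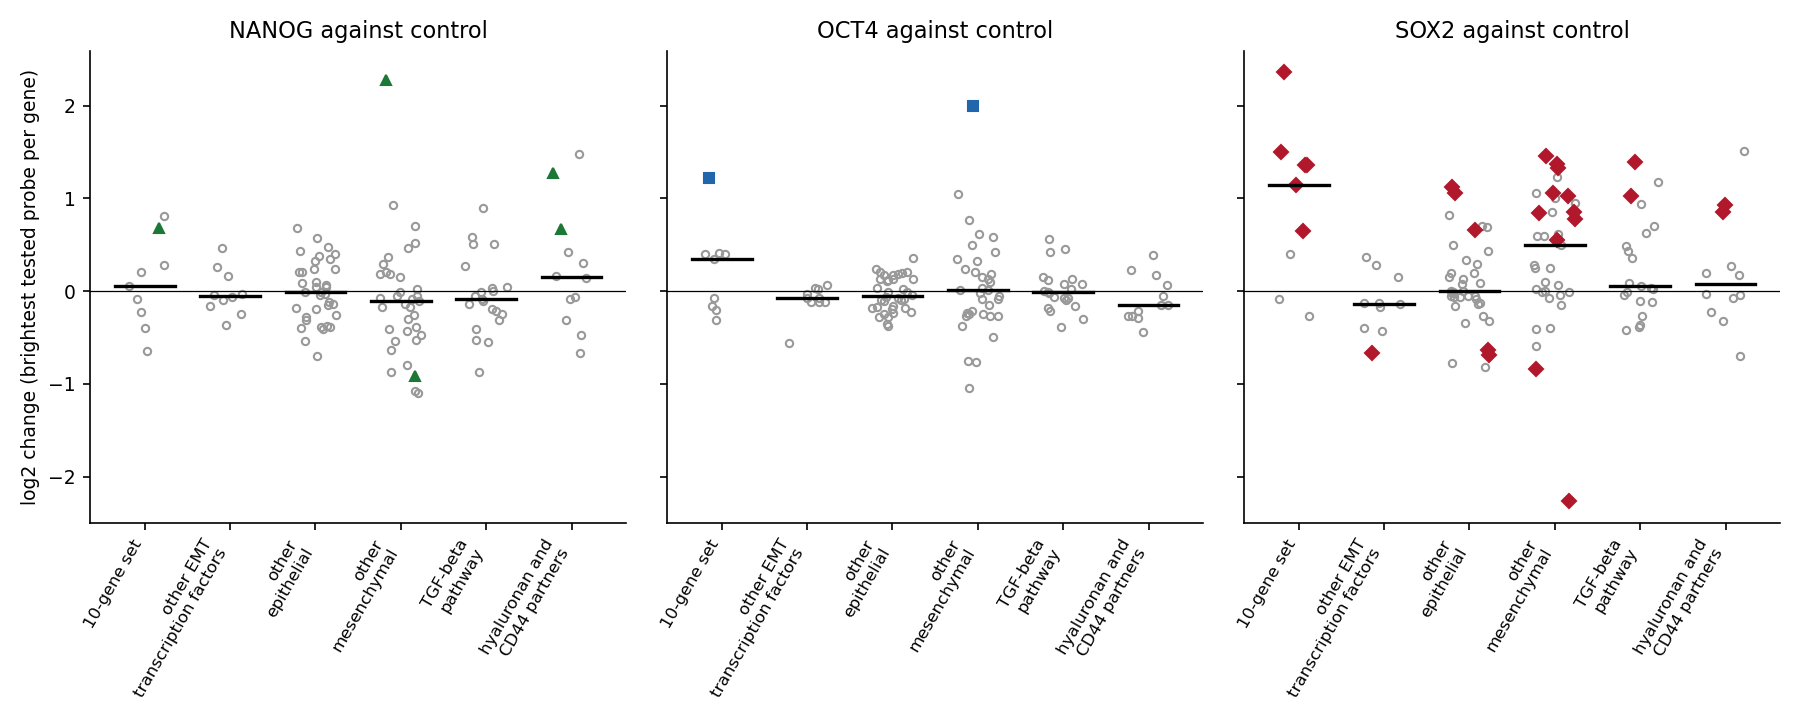
Log2 change against control of every measured gene in the switch genes (labelled 10-gene set, 9 of them tested) and in 5 lists of related genes, for the NANOG, OCT4 and SOX2 groups; filled points had an adjusted p under 0.05 and bars are list medians. The SOX2 median is 0.50 for the 35 mesenchymal genes and -0.00 for the 36 epithelial genes.

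Among 12 measured genes of hyaluronan synthesis, hyaluronan binding and CD44's partners, 2 rose with NANOG and 2 with SOX2, where 2.3% and 5.65% of all genes were called higher. HAS2, a hyaluronan synthase, read 122 and 116 in control, 245 and 212 with NANOG, 112 and 111 with OCT4 and 137 and 133 with SOX2. On the background-corrected scale it was at least 2.28-fold higher in NANOG (adjusted p = 0.00156), a call that held without each array in turn. Under the alternatives its log2 change ran from 0.94 to 1.82. HAS3, a further hyaluronan synthase, rose in the SOX2 group (log2 0.92, SE 0.13, adjusted p = 0.00688) and in the NANOG group (0.67, SE 0.13, adjusted p = 0.0425). The NANOG call on HAS3 was lost without 5 of the 8 arrays, while the SOX2 call held without each in turn. VCAN, a proteoglycan that binds hyaluronan, was the other gene called with SOX2 (0.85, adjusted p = 0.0422), a call lost without control replicate 1 or any 1 NANOG or OCT4 array, which left 1 gene called there. The receptor CD44 itself was called with SOX2 and not with NANOG.

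With NANOG, the mesenchymal list held 1 call in each direction, with 0.675% of all genes called lower. TNC, the matrix glycoprotein tenascin C, rose by 2.28 (SE 0.34, adjusted p = 0.0143); the control arrays read 230.0 and 199 and the NANOG arrays 882 and 865. COL5A2, a chain of the fibril collagen V, fell by 0.92 (adjusted p = 0.0197). With OCT4 the same collagen gene rose by 2.00 (SE 0.15, adjusted p = 0.00324), with 255 and 270.5 on the control arrays and 1047 and 814 on the OCT4 arrays. It was the 1 gene called in these lists, where 0.201% of all genes were called higher. These calls were lost without 1 array at a time: TNC without control replicate 2 or either NANOG array, COL5A2 in NANOG without any control or NANOG array, and COL5A2 in OCT4 without control replicate 1 (adjusted p = 0.0540). No gene of the epithelial, transcription factor or TGF-beta lists was called with NANOG or OCT4. With only the 2 groups compared, 8 of the epithelial genes were called with NANOG (5 higher, 3 lower) and 12 of the mesenchymal genes (5 higher, 7 lower). So were 5 of the TGF-beta genes (4 higher, 1 lower) and 1 transcription factor gene, which was higher. Over all probes the calls rose from 506 to 1674 of 21828 in that fit, 994 higher and 680 lower. The counts of these lists and of all probes also rose without either SOX2 array.

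Markers of other cell types were read on the same arrays. Of 12 neural crest markers, the switch gene SNAI2 among them, 8 passed the filter and 0 were called against control. Their summed intensities ran from 1731 to 2188. A list of 12 markers all at the filter intensity would sum to 1484, and ETS1 alone ranged from 409 to 879. Of 12 mesendoderm markers, 3 passed, with sums of 1327 to 1472, and EOMES was called in the SOX2 group by at least 1.20-fold (adjusted p = 0.0478). That call was lost without 7 of the 8 arrays, and EOMES read 132 and 148 with SOX2 and 139 and 148 with NANOG. Of 12 blood and endothelial markers, 4 passed and 0 were called, and their sum was 2693 and 2345 on the SOX2 arrays against 1987 and 2382 in control. LYN alone read 1333 and 952 on the SOX2 arrays and 635 and 942 in control. Of 10 trophectoderm markers, 2 passed and TFAP2C was higher in the NANOG group (log2 0.81, adjusted p = 0.0420), a call lost without any 1 of the control or NANOG arrays. Over all genes 5.65% were called higher with SOX2 and 2.3% with NANOG. The part of such cells in the changes of the switch genes was not tested.

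The probes of other genes whose profile over the 8 arrays lay closest to each called switch gene were found by the root mean square difference of centred log2 values. Its size is set largely by the 4 group means, since 8 arrays of 4 groups were compared, and it is given as a description. For CDH2 the closest were CALD1 (0.18), TAP1 (0.18), a peptide transporter of antigen presentation, and SLFN12 (0.19). For VIM they were PROM1 (0.18), which encodes the surface antigen CD133, HEY1 (0.20), a Notch target, and the chemokine receptor gene CXCR4 (0.21). For TGFBI they were ITGA5 (0.12), HOXD1 (0.13) and HLA-B (0.14), whose probe may bind related class I genes, and for TGFB1I1 they were TPM2 (0.14), the interferon-induced gene MX1 (0.15) and BACH2 (0.15). CALD1, ITGA5 and TPM2 are also in the mesenchymal list.

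TWIST1, highest on the OCT4 arrays, lay closest to EXOC6 (0.16), the engulfment receptor gene MEGF10 (0.20) and RGS20 (0.20), a regulator of G protein signalling. CD44 lay closest to MIR503HG (0.26), PALLD (0.33), an actin-bundling protein of stress fibres, and TAC1 (0.35), which encodes substance P. These differences were larger, but CD44 itself varied more. Its root mean square about its mean was 1.15, against 0.51 to 0.61 for the other called genes. Among the switch genes themselves, CDH2 and TGFB1I1 were the closest pair of called genes (0.21), followed by VIM and TGFBI (0.25).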

How the data were processed

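RNA of 8 H1 samples was measured on Illumina arrays, 2 per group, and grouped by the labels. The authors' deposited intensity values are linear, from 86.3 to 22884, with a median of 117 on every array. Sorted, they differed between arrays by 2.30 or less, which shows quantile normalization by a tool not given in the sources used here. Another deposited table, of earlier signals, has 16 columns whose names match no label, and it was not used. The intensities were background corrected (normexp, offset 50) and taken to log2 in limma 3.58.1 under R 4.3.3. Probes above the 60th percentile (124) on at least 2 arrays were kept. One model of 4 group means over all 8 arrays (4 residual and 4.34 prior degrees of freedom, median residual SD 0.133 on the log2 scale) was fitted with lmFit and eBayes, two-sided, with Benjamini-Hochberg adjustment over 21828 probes and a threshold of 0.05. The procedure was tested on simulated data.

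Probe names came from the platform's annotation (1 symbol for 30113 probes, several for 8, none for 17202), and 30074 matched a RefSeq gene table of GRCh38.p14, with 0 symbols updated. Every probe of the 10 genes was named or counted. In the related lists, the brightest probe stood for a gene and up to 3 called genes per list and direction were given with values; ITGA5, TPM1, TPM2, ACTA2, VCAN and COL4A1 were named beyond this rule, after their values were seen. For likeness, the 3 closest named genes were taken. The members, lists and tests were chosen with earlier results of these data known. Precision is limited by 2 arrays per group.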

Additional observations from a re-analysis of the deposited data

How the results depend on the processing

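Of 1716 log2 changes of the switch genes' probes recomputed under 12 alternatives that kept all arrays and 8 that left out 1 array, 1573 kept their direction and their side of the threshold, 79 lost a call, 41 gained one and 23 changed sign, 0 of these with all arrays kept. The cause was not tested unless stated. The number of called probes in NANOG against control, 1 as reported, was 0 with a normexp offset of 16, 0 with a filter on all 8 arrays, 3 with only the 2 groups compared, 3 with array weights, 3 with an intensity trend and robust prior, and 0 to 3 with 1 array left out. In OCT4 against control the 1 call became 0 with the filter on all 8 arrays, which leaves TWIST1 untested, and was 0 to 1 with 1 array left out. In SOX2 against control the 8 calls, 1 of them of a probe that passed the filter only through the SOX2 arrays, became 2 with only the 2 groups compared and were 6 to 10 with 1 array left out. Between NANOG and OCT4 the 3 calls became 1 with the filter on all 8 arrays, 7 with only the 2 groups and 5 with array weights, and were 1 to 4 with 1 array left out. Between NANOG and SOX2 the 6 calls were 2 to 11 with 1 array left out. Between OCT4 and SOX2 the 7 calls became 1 with only the 2 groups and were 3 to 10 with 1 array left out. Over all probes, with only the 2 groups compared the calls were 1674 for NANOG against control (506 as reported), 50 for OCT4 (38), 189 for SOX2 (1749), 3419 for NANOG against OCT4 (1118), 1748 for NANOG against SOX2 (2939) and 157 for OCT4 against SOX2 (1036), and with 1 array left out they ran over 67 to 1520, 1 to 195, 347 to 5444, 149 to 2544, 700 to 6161 and 245 to 5071. With array weights they were 1630, 115, 793, 3143, 2258 and 562, and with the filter on all 8 arrays 260 for NANOG against control, 14 for OCT4 and 722 for NANOG against OCT4.

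The labels give replicate numbers 1 and 2 in every group. The differences between replicates 1 and 2 correlated across probes from -0.19 to 0.35 over the 6 pairs of groups, highest between control and OCT4. The labels do not say whether samples with the same number share a source, and this was not tested. With the replicate block the calls were 0 for NANOG against control, 0 for OCT4 and 7 for SOX2, and 24 over all probes for OCT4. The 7 include CD44 probe ILMN_2348788, which passed the filter only through the SOX2 arrays. The sign of 16 uncalled changes, from -0.14 to 0.40, turned with 1 array left out. Against control in NANOG these were CDH2 (-0.10 to 0.66), EPCAM probes ILMN_2160210 (-0.00025 to 0.12) and ILMN_2160209 (-0.14 to 0.22), TWIST1 (-0.19 to 0.028) and the TGFB1I1 probes (-0.020 to 0.43 and -0.14 to 0.080). In OCT4 they were EPCAM probe ILMN_2160209 (-0.13 to 0.056), SNAI2 probe ILMN_2082585 (-0.026 to 0.16) and the CD44 probes (-0.021 to 0.82 and -0.094 to 0.041). Between NANOG and OCT4 they were EPCAM probe ILMN_2160209 (-0.10 to 0.25), the TGFB1I1 probes (-0.35 to 0.070 and -0.18 to 0.034) and CD44 probe ILMN_2348788 (-0.12 to 0.011). EPCAM probe ILMN_2160209 ran from -0.20 to 0.16 between NANOG and SOX2, and ILMN_2160210 from -0.13 to 0.058 between OCT4 and SOX2. Probes near the filter intensity, those of SNAI2 and ZEB2 among them, limit what could be detected.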
